A study of Mus musculus with 31 samples.

Results

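The unfolded protein response and the integrated stress response were followed in mouse lung through 10 genes: Atf4, Ddit3, Trib3, Asns, Chac1, Hspa5, Xbp1, Hsp90b1, Dnajb9 and Herpud1. They were found as the probes whose gene symbol in the scanner files, or whose current symbol by accession, was one of these names. All 10 were measured, by 12 probes, among 25115 features tested. Atf4 and Dnajb9 had 2 probes each, and every gene was represented by its brighter probe. The study gave female C57BL/6 mice, 6 weeks old and under xylazine and ketamine anaesthesia, 200 µl into the tail vein. Control mice received physiological serum (called saline here) and the others oleic acid at 1.2 µl per g, a fatty acid that injures the lung capillary wall when it reaches the blood. Lung collection followed 1, 1.5, 3, 4, 18 or 24 h later. Every time had 3 mice given oleic acid, while saline groups held 3 at 1 h and 2 from 1.5 h on. Each of the 31 mice was hybridised to 1 single-colour Agilent array, and 29 arrays were used. The third oleic acid array of 1.5 h and the second of 3 h were left out for spike-in slopes far from 1 (1.66 and 0.751). Oleic acid therefore had 2 mice at 1.5 h and at 3 h. All groups share the anaesthesia and an injection, and no uninjected mouse was among the samples.

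Proteins of the secretory pathway fold in the endoplasmic reticulum (ER), and 3 sensors in its membrane report a surplus of unfolded chains. The kinase PERK phosphorylates the initiation factor eIF2alpha, which lowers most protein synthesis but favours translation of the transcription factor ATF4; other kinases reach the same step from amino acid shortage, haem shortage or viral RNA, and this shared branch is the integrated stress response. The nuclease IRE1 splices the messenger RNA of XBP1 into an active form, and ATF6 is cut and moves to the nucleus; both switch on chaperones and genes that clear misfolded proteins. ATF4 acts with CHOP, the product of Ddit3, on amino acid transport and synthesis, on Trib3, which feeds back on ATF4 and CHOP, and on Chac1, which degrades glutathione. In lung, the alveolar type 2 cell secretes surfactant proteins and depends on this machinery.

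Several members carry a known stress element close to their transcription start, and the stretches that hold one are shown because these elements are the known sites of ATF4 and of the ER arms. Windows of 250 bases before and 50 bases after the start were searched on both strands for 3 elements. The ER stress response element was searched as CCAAT and CCACG with 9 letters of any kind between them, element II as ATTGG and CCACG with 1 letter of any kind between them, and the C/EBP-ATF response element, the ATF4 site, as TGATGNAA. The first stood in 39 of 32851 windows (0.119%), the second in 12 (0.0365%) and the third in 1304 (3.97%). Among the 10 members, 2 (Hspa5 and Hsp90b1) held the first, 1 (Herpud1) the second, and 4 (Asns, Chac1, Herpud1 and Trib3) the third. No matches overlapped. The stretches are from RefSeq on GRCm38.p6, on the strand of the gene, with each match in capitals; the match of Trib3 lies after the start and is not printed, and Atf4, Ddit3, Xbp1 and Dnajb9 have no match in this window.
Asns, chr6:7693214-7693243, minus strand, -34 to -5 from the start: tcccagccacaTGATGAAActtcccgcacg
Chac1, chr2:119351038-119351067, plus strand, -204 to -175: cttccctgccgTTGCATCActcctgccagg
Herpud1, chr8:94386306-94386398, plus strand, -123 to -31: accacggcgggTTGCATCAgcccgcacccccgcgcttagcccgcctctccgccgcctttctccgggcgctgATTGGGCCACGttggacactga
Hspa5, chr2:34772014-34772054, plus strand, -76 to -36: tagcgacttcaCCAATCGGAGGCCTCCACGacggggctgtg
Hsp90b1, chr10:86705522-86705667, minus strand, -223 to -78: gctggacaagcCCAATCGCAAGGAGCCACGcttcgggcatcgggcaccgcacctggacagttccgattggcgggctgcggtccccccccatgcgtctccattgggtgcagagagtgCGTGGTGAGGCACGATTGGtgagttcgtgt
Chac1 and Herpud1 hold the ATF4 site on the opposite strand, so it reads there as its reverse complement, and Hsp90b1 holds the ER element once on each strand. These are matches of letters and say nothing of binding in these lungs.

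Values are log2 of the processed signal minus the 75th percentile of the array, so that 0 is that percentile; levels of different probes cannot be set against each other. The 75th percentile itself lay between 245 and 537 on the 29 arrays. The lung markers Sftpc, Scgb1a1, Ager, Foxj1 and Cldn5 were well above background on 29 of 29 arrays, and so were Alb of liver, Myh6 of heart muscle and Adipoq of fat. The arrays sat on 4 slides that run with time: slide 1 held the 1 h arrays and 1 saline array of 1.5 h, slide 2 the other 1.5 h arrays and most of 3 h, slide 3 the 4 h arrays, the 18 h saline arrays and oleic acid 3 h replicate 3, and slide 4 the 18 h oleic acid arrays and all of 24 h. Treatment and slide cannot be told apart at 18 h. Late and early oleic acid times also lie on separate slides and cannot be told apart from them. In whole lung, a change in the number of cells of a type and a change in RNA per cell cannot be told apart.

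Chac1, Trib3 and Herpud1 changed over time in oleic acid mice and Atf4 in saline mice, with the highest levels at 3 or 4 h, and no member was called between the treatments. Within oleic acid mice, 3 of 10 members differed among the 6 times by limma's moderated F test, Chac1 (adjusted p = 0.000749), Trib3 (adjusted p = 0.00434) and Herpud1 (adjusted p = 0.0214), where 4.67% of all features did. Within saline mice the 1 member called was Atf4 (adjusted p = 0.0278), where 4.64% of features were called. This call is from the brighter Atf4 probe, and the second probe was not called (adjusted p = 0.0827, limma F test). Between oleic acid and saline at any of the 6 times, limma called 0 of 10 members against 0.0159% of features. An unadjusted p under 0.05 was seen for 1 member, Chac1, and for 805 of 25115 features. All adjusted p-values are Benjamini-Hochberg values over the 25115 features, called under 0.05.

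**Figure D1:**
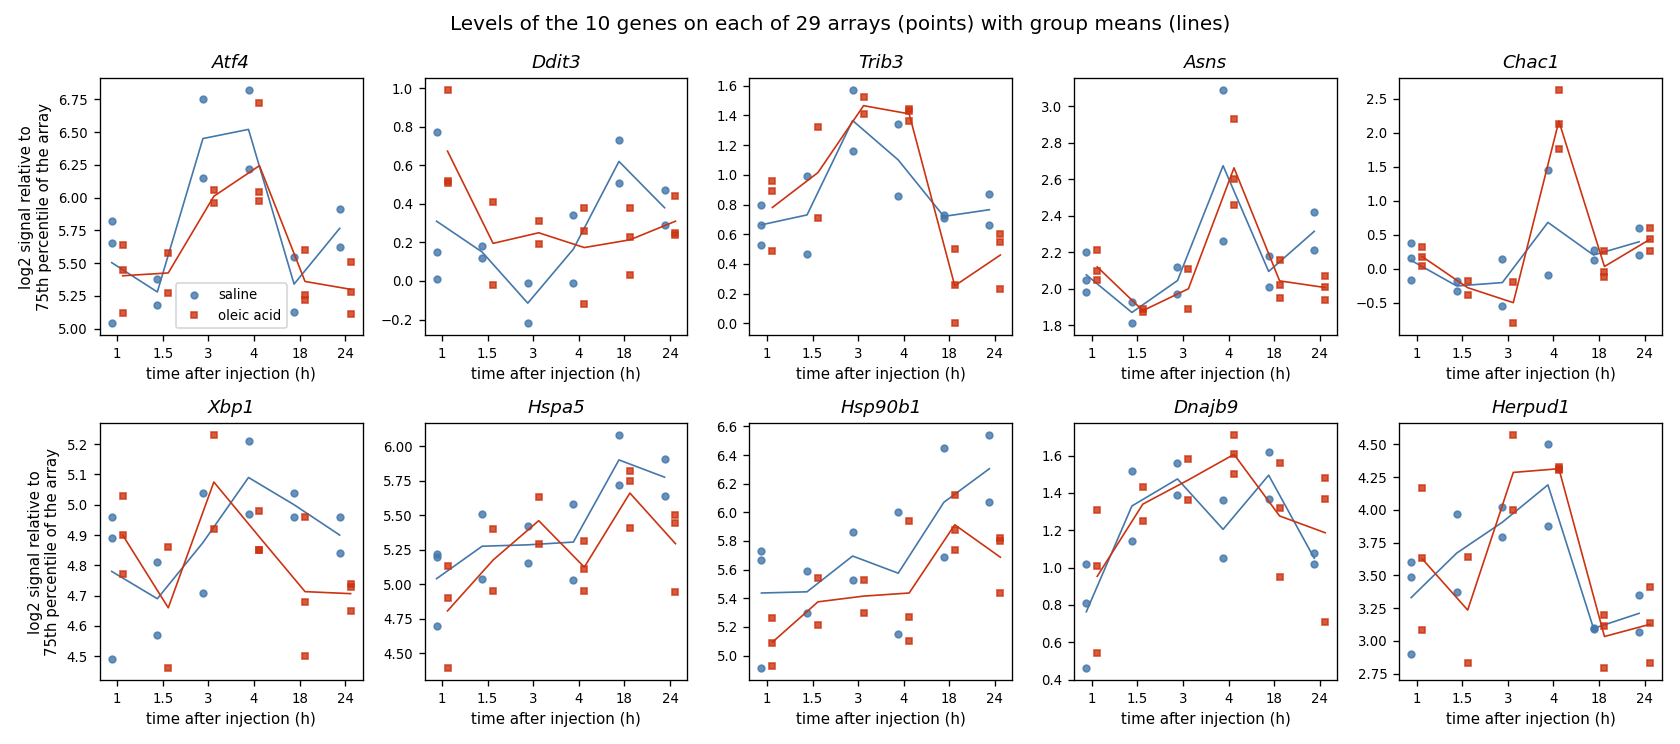
Log2 signal above or below the array's 75th percentile for the 10 members, one panel per gene and one point per mouse, by hours after injection and treatment; lines join group means. Chac1 of oleic acid mice stands at 1.76 to 2.63 at 4 h, above every other array, and Atf4 is high at 3 and 4 h in both treatments.

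Atf4 encodes the transcription factor at the centre of the integrated stress response. In saline mice its level was 5.65, 5.82 and 5.04 at 1 h, 5.18 and 5.38 at 1.5 h, 6.15 and 6.75 at 3 h, 6.22 and 6.82 at 4 h, 5.55 and 5.13 at 18 h, and 5.91 and 5.62 at 24 h. After oleic acid it was 5.45, 5.12 and 5.64 at 1 h, 5.27 and 5.58 at 1.5 h, 6.06 and 5.96 at 3 h, 6.04, 6.72 and 5.97 at 4 h, 5.6, 5.26 and 5.22 at 18 h, and 5.28, 5.51 and 5.11 at 24 h. Every array of 3 and 4 h, of either treatment, lay at or above 5.96, and every array of the other times at or below 5.91. Group means were highest in saline mice at 4 h (6.52 ± 0.42, SD, n = 2) and lowest in saline mice at 1.5 h (5.28 ± 0.14, n = 2). The saline difference among 1 to 4 h was called (adjusted p = 0.0298, limma F test; 2.67% of features), and saline mice of 18 h lay below those of 4 h on the same slide by a log2 difference of -1.18 (adjusted p = 0.0251, limma; 6.34% of features). With slide as a term the 1 to 4 h difference was not called (adjusted p = 0.755), and the 18 h difference was lost without saline 4 h replicate 2 (-0.88, adjusted p = 0.195) or saline 18 h replicate 2 (-0.97, adjusted p = 0.224) and with quantile normalization (-0.71, adjusted p = 0.146) or in the deposited table (-0.7, adjusted p = 0.117). The Atf4 call among 6 times was lost without saline 1.5 h replicate 1, 3 h replicate 2, 4 h replicate 2 or 18 h replicate 2 (adjusted p between 0.0536 and 0.077), and that among 1 to 4 h without either saline 1.5 h array, saline 3 h replicate 2 or saline 4 h replicate 2 (between 0.0637 and 0.0964). The late minus early difference within oleic acid mice (mean of 18 and 24 h minus mean of 1 to 4 h) was -0.44 (95% interval -0.77 to -0.12) and was not called (adjusted p = 0.108), but was with the mean of both probes (-0.52, adjusted p = 0.000912) or slide as a random block (-0.44, adjusted p = 0.0456).

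The Atf4 gene has a second, dimmer probe, and its time course differed in part. The brighter probe lies at chr15:80087902-80087961 and the second at chr15:80086639-80086698 (mm9, plus strand, both assigned to the same transcript). In saline mice the second probe read -0.6, -0.14 and 0.67 at 1 h, 0.79 and 0.6 at 1.5 h, 0.74 and 0.63 at 3 h, 1.16 and 0.68 at 4 h, 0.01 and 0.36 at 18 h, and -0.23 and -0.13 at 24 h. In oleic acid mice it read 0.64, 0.58 and 0.42 at 1 h, 0.92 and 0.41 at 1.5 h, 0.96 and 0.71 at 3 h, 1.25, 0.82 and 0.98 at 4 h, 0.11, 0.12 and 0.33 at 18 h, and -0.18, 0.08 and 0.6 at 24 h. It was therefore already high at 1.5 h, where the brighter probe was not, and low on 2 of 3 saline arrays of 1 h. Its late minus early difference in oleic acid mice was called (-0.59, 95% interval -0.93 to -0.25, adjusted p = 0.0377, limma), and that in saline mice was not (-0.57, -0.96 to -0.18, adjusted p = 0.121). The saline calls of the brighter probe were not met by the second. Its adjusted p was 0.0827 among 6 times and 0.136 among 1 to 4 h (limma F test). For saline 18 h against 4 h it was at -0.73 (-1.38 to -0.09, adjusted p = 0.16, limma). Between treatments at 24 h the probes pointed in opposite directions, at -0.47 (-1.04 to 0.1) for the brighter and 0.34 (-0.25 to 0.93) for the second, neither called (adjusted p = 0.835 for both, limma).

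**Figure D2:**
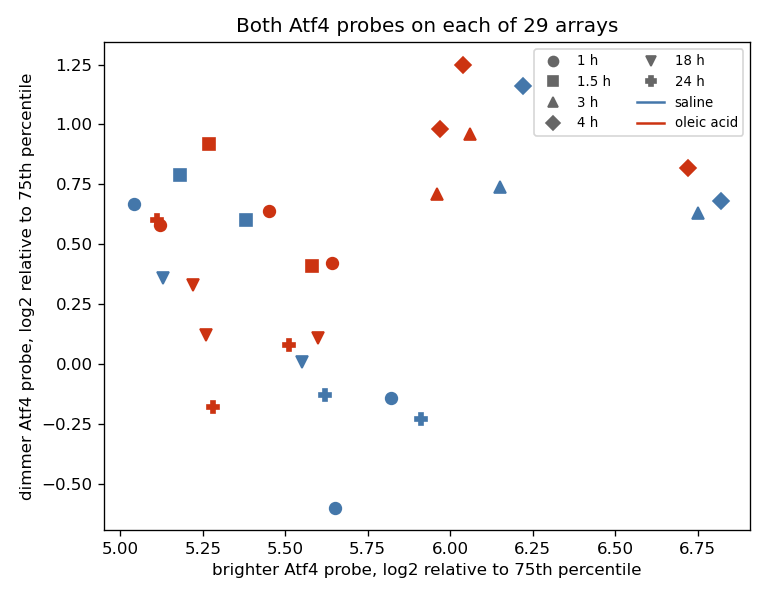
The 2 probes of Atf4 as log2 signal above or below the array's 75th percentile, with one point per mouse, by hours after injection. The brighter probe separates 3 and 4 h (5.96 and above) from the other times. The second probe is mostly low at 18 and 24 h, though it reaches 0.6 in oleic acid mice at 24 h. It is also low on some saline arrays of 1 h (down to -0.6).

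Ddit3 encodes CHOP, the factor that works with ATF4 when stress persists. It moved little: over the 29 arrays it spanned -0.22 to 0.99, with a median of 0.26. Its values in oleic acid mice were 0.52, 0.99 and 0.51 at 1 h, 0.41 and -0.02 at 1.5 h, 0.19 and 0.31 at 3 h, 0.26, -0.12 and 0.38 at 4 h, 0.03, 0.38 and 0.23 at 18 h, and 0.25, 0.24 and 0.44 at 24 h. Its values in saline mice were 0.15, 0.01 and 0.77 at 1 h, 0.12 and 0.18 at 1.5 h, -0.01 and -0.22 at 3 h, 0.34 and -0.01 at 4 h, 0.51 and 0.73 at 18 h, and 0.29 and 0.47 at 24 h. The oleic acid arrays were above both saline arrays at 3 h and below both at 18 h, and overlapped them at the other times. No difference among times was called in either treatment (adjusted p = 0.439 in oleic acid, 0.292 in saline, limma F test). Atf4 and Ddit3 ran in opposite directions, with Pearson r = -0.643 and Spearman rho = -0.56 over the 29 arrays and r = -0.907 after group means were removed. Atf4 is here the brighter probe. Arrays share slides and signal levels, and in this second form Atf4 also ran with Hsp90b1 (r = 0.936). Ddit3 likewise ran opposite to Hsp90b1 (r = -0.873) and Hspa5 (r = -0.779) in this form, so the opposition is not particular to Atf4.

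Chac1, which degrades glutathione and is an ATF4 target, had the widest range of the 10 members. After oleic acid its level was 0.05, 0.33 and 0.17 at 1 h, -0.17 and -0.38 at 1.5 h, -0.8 and -0.19 at 3 h, 1.76, 2.13 and 2.63 at 4 h, 0.27, -0.12 and -0.04 at 18 h, and 0.6, 0.27 and 0.44 at 24 h. In saline mice it was -0.16, 0.38 and 0.16 at 1 h, -0.18 and -0.32 at 1.5 h, -0.54 and 0.14 at 3 h, 1.46 and -0.09 at 4 h, 0.13 and 0.28 at 18 h, and 0.2 and 0.6 at 24 h. The 3 oleic acid arrays of 4 h stood above every other array, and the next highest was saline 4 h replicate 1. The difference among 1 to 4 h in oleic acid mice was called (adjusted p = 0.000723, limma F test; 2.25% of features), but not with slide as a term (adjusted p = 0.0734), and that among 6 times was not called with median centring (adjusted p = 0.13). On slide 3, oleic acid 3 h replicate 3 read -0.19 and the 3 oleic acid arrays of 4 h 1.76 to 2.63. The probe lies at chr2:119179990-119180049 (mm9, plus strand).

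At 4 h Chac1 was 2.8-fold higher in oleic acid than in saline mice as a fitted value, a log2 difference of 1.49 (95% interval 0.78 to 2.19). Over all features limma did not call it (unadjusted p = 0.000303, adjusted p = 0.421), where 0.0199% were called, 0.0119% as higher. The saline mean at this time was 0.69 ± 1.09 (SD, n = 2) and the oleic acid mean 2.17 ± 0.44 (n = 3). Without saline 4 h replicate 1 the difference was 2.26 and was called (adjusted p = 0.00836), and without saline 4 h replicate 2 it was 0.71 (adjusted p = 0.753). Beside it, all 3 fat markers measured (Adipoq, Plin1 and Cidec) together stood at 0.03 to 2.39 in oleic acid and -1.13 to -0.26 in saline mice, as the mean deviation from their average over the arrays. All 4 liver markers measured stood at -1.23 to 0.1 against -3.02 to -1.73, and the 4 alveolar type 1 markers at -0.17 to -0.03 against 0.06 to 0.22. The 6 neutrophil markers overlapped, at -0.22 to 0.59 against 0.13 to 1.19. Whether these markers have a part in the Chac1 value was not tested.

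Trib3, a pseudokinase that restrains ATF4 and CHOP, fell late in oleic acid mice. Its level there was 0.89, 0.49 and 0.96 at 1 h, 0.71 and 1.32 at 1.5 h, 1.41 and 1.52 at 3 h, 1.44, 1.36 and 1.43 at 4 h, 0.5, 0.26 and 0 at 18 h, and 0.55, 0.23 and 0.6 at 24 h. In saline mice it was 0.53, 0.66 and 0.8 at 1 h, 0.47 and 0.99 at 1.5 h, 1.57 and 1.16 at 3 h, 1.34 and 0.86 at 4 h, 0.71 and 0.73 at 18 h, and 0.87 and 0.66 at 24 h. The 6 late oleic acid arrays lay at or below 0.6 and only 1 of the 10 early ones (0.49) did, while late and early saline arrays overlapped. From early to late times the log2 difference in oleic acid mice was -0.81 (95% interval -1.07 to -0.55), 0.571-fold (adjusted p = 0.00102, limma; 5.34% of features called, 3.24% as lower). It stayed called when each array was left out in turn, but not with all 31 arrays (-0.66, adjusted p = 0.355) or with arrays centred on the median (-0.86, adjusted p = 0.499). In saline mice it was -0.22 (-0.52 to 0.08, adjusted p = 0.533). The oleic acid effect changed between early and late times by -0.58 (-0.98 to -0.19), with an unadjusted p of 0.00614 and an adjusted p of 1 (limma; 0% of features called), so the late fall is not shown to differ between treatments.

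Asns, asparagine synthetase, read highest at 4 h in both treatments. It read 3.09 and 2.26 in saline and 2.6, 2.46 and 2.93 in oleic acid mice at that time, against 1.81 to 2.42 on all other arrays. Of the 4 h arrays, saline replicate 2 lay within the range of the other times. The group mean was 2.67 ± 0.59 (SD, n = 2) in saline and 2.66 ± 0.24 (n = 3) in oleic acid mice. The differences among times were not called (adjusted p = 0.057 in oleic acid, 0.109 in saline, limma F test). The oleic acid difference passed the threshold with slide as a random block (adjusted p = 0.0234) or an intensity trend (adjusted p = 0.0358). It also passed with only probes above background on every array (adjusted p = 0.0401). Asns and Chac1 had Pearson r = 0.816 and Spearman rho = 0.655 over the 29 arrays.

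Among the genes of the ER arms, Herpud1, which helps to clear misfolded proteins from the ER, also read highest at 3 and 4 h. In oleic acid mice it read 3.63, 3.08 and 4.17 at 1 h, 2.83 and 3.64 at 1.5 h, 4 and 4.57 at 3 h, 4.3, 4.33 and 4.31 at 4 h, 3.2, 2.79 and 3.11 at 18 h, and 3.14, 2.83 and 3.41 at 24 h. In saline mice it read 2.9, 3.6 and 3.49 at 1 h, 3.37 and 3.97 at 1.5 h, 3.79 and 4.02 at 3 h, 4.5 and 3.88 at 4 h, 3.09 and 3.1 at 18 h, and 3.07 and 3.35 at 24 h. All arrays of 3 and 4 h lay at or above 3.79 and all late arrays at or below 3.41, in both treatments. The late minus early difference was -0.78 (95% interval -1.16 to -0.41), 0.58-fold, in oleic acid mice (adjusted p = 0.0141, limma) and -0.63 (-1.06 to -0.19) in saline mice, where it was not called (adjusted p = 0.122). The oleic acid call was lost with all 31 arrays (-0.78, adjusted p = 0.813) and with median centring (-0.84, adjusted p = 0.7). Its difference among 6 times in oleic acid mice was no longer called without oleic acid 3 h replicate 3 or without any 1 of the 3 oleic acid 4 h arrays (adjusted p between 0.0516 and 0.0559). Trib3 and Herpud1 had Pearson r = 0.834 and Spearman rho = 0.813 over the 29 arrays. The Herpud1 probe lies at chr8:96919117-96919176 and the Trib3 probe at chr2:152163161-152163220 (mm9, plus and minus strand).

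The ER chaperones Hspa5 and Hsp90b1 had their highest group means at 18 or 24 h in saline mice, though no late minus early difference was called. Hspa5 encodes BiP, the chaperone that holds the 3 sensors inactive, and in saline mice it read 5.22, 5.2 and 4.7 at 1 h, 5.04 and 5.51 at 1.5 h, 5.15 and 5.42 at 3 h, 5.03 and 5.58 at 4 h, 6.08 and 5.72 at 18 h, and 5.91 and 5.64 at 24 h. In oleic acid mice it read 4.9, 4.39 and 5.13 at 1 h, 4.95 and 5.4 at 1.5 h, 5.29 and 5.63 at 3 h, 4.95, 5.31 and 5.11 at 4 h, 5.75, 5.41 and 5.82 at 18 h, and 5.5, 5.44 and 4.94 at 24 h. Late saline arrays lay above all early saline arrays, whereas late oleic acid arrays overlapped the early ones. The late minus early difference was 0.61 (95% interval 0.26 to 0.97, adjusted p = 0.0613, limma) in saline and 0.33 (0.03 to 0.64, adjusted p = 0.206) in oleic acid mice, neither called. The saline difference passed the threshold with quantile normalization (0.72, adjusted p = 0.0268), in the deposited table (0.73, adjusted p = 0.0174) and with normexp background correction (0.67, adjusted p = 0.0307).

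Hsp90b1 encodes GRP94, the ER member of the HSP90 family. In saline mice it read 5.67, 5.73 and 4.91 at 1 h, 5.3 and 5.59 at 1.5 h, 5.53 and 5.86 at 3 h, 5.15 and 6 at 4 h, 6.45 and 5.69 at 18 h, and 6.54 and 6.07 at 24 h. In oleic acid mice it read 5.09, 4.93 and 5.26 at 1 h, 5.21 and 5.54 at 1.5 h, 5.53 and 5.3 at 3 h, 5.27, 5.94 and 5.1 at 4 h, 6.12, 5.74 and 5.88 at 18 h, and 5.8, 5.82 and 5.44 at 24 h. Late and early arrays overlapped in both treatments. The late minus early difference was 0.65 (95% interval 0.23 to 1.07, adjusted p = 0.0973, limma) in saline and 0.47 (0.11 to 0.83, adjusted p = 0.127) in oleic acid mice. Hspa5 and Hsp90b1, both with the ER stress response element printed above, had Pearson r = 0.859 and Spearman rho = 0.862 over the 29 arrays. Over late against early saline times limma called 0 of 10 members, where 2.69% of features were called, 1.32% as higher and 1.37% as lower. An unadjusted p under 0.05 was seen for 5 of 10 members and for 3735 of 25115 features. Between 18 and 24 h in oleic acid mice, which share a slide, limma called 0 members, with 0 at an unadjusted p under 0.05, against 0.0119% of features.

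Xbp1 and Dnajb9, the factor made active by IRE1 and an ER co-chaperone under its control, had no called difference. Xbp1 spanned 4.46 to 5.23 over the 29 arrays, the narrowest range of the 10 members, and this probe does not tell the spliced from the unspliced form. Dnajb9 spanned 0.46 to 1.71, and both its lowest readings, 0.46 in saline and 0.54 in oleic acid mice, were from 1 h. Its highest group mean was that of oleic acid mice at 4 h (1.61 ± 0.11, SD, n = 3), whose arrays overlapped those of other groups. The differences among times gave adjusted p = 0.505 and 0.558 for Xbp1 and 0.378 and 0.215 for Dnajb9 (oleic acid and saline, limma F test). The second Dnajb9 probe spanned -2.59 to -1.05 and did not order the groups in the same way. Dnajb9 was also the 1 member whose level moved with the 75th percentile of the array, by 0.51 per doubling (adjusted p = 0.0286, limma), where 23.6% of features did.

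**Figure D3:**
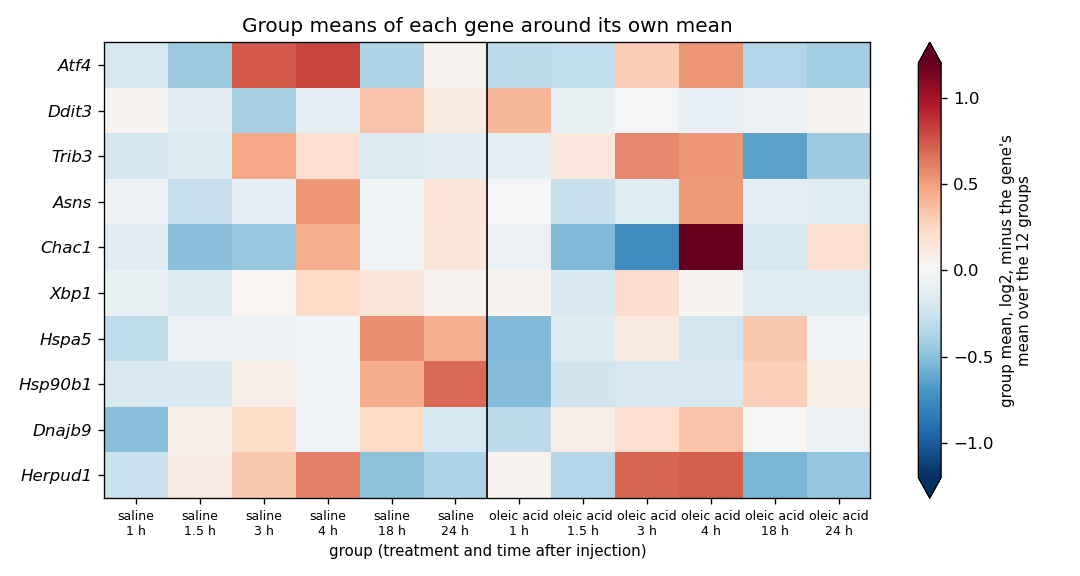
Group means of the 10 members as deviations from each gene's own mean (colour, log2), with times in columns for saline and oleic acid mice and genes grouped by role. Atf4, Trib3 and Herpud1 are high at 3 and 4 h in both treatments. Hspa5 and Hsp90b1 are highest at 18 and 24 h in saline mice and next highest at 18 h in oleic acid mice. Chac1 at 4 h in oleic acid mice lies beyond the end of the colour scale.

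No member passed the threshold between oleic acid and saline lungs at any single time. At 1, 1.5 and 3 h limma called 0 of 10 members, with 0 members at an unadjusted p under 0.05 and 0% of features called at each. At 4 h and at 18 h it called 0 members, against 0.0199% of features at both times. Under an unadjusted 0.05 lay 1 member each: Chac1 at 4 h, where 1920 of 25115 features did, and Trib3 at 18 h, where 580 did. Trib3 was at -0.46 (95% interval -0.92 to -0.01, adjusted p = 1). At 24 h limma called 0 members, with 0 under an unadjusted 0.05, against 0.0159% of features. The intervals allow sizeable differences: at 24 h Hsp90b1 was at -0.62 (-1.25 to 0.02) and Hspa5 at -0.48 (-1.02 to 0.06), with adjusted p = 0.835 each.

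Averaged over 1 to 4 h, the oleic acid minus saline differences were 0.31 (95% interval -0.06 to 0.67) for Chac1, 0.2 (-0.03 to 0.44) for Trib3, 0.2 (-0.04 to 0.43) for Ddit3 and -0.21 (-0.53 to 0.12) for Hsp90b1, with 0 members called, 0 under an unadjusted 0.05 and 0% of features called (limma). Averaged over 18 and 24 h all 10 members lay below 0, with a median of -0.23 where the median of all features was -0.067. This holds for the brighter probes: the second Atf4 probe was at 0.17 (-0.25 to 0.59) against -0.22 (-0.63 to 0.18) for the brighter. The largest differences were Trib3 at -0.38 (-0.7 to -0.06, unadjusted p = 0.0224), Hsp90b1 at -0.38 (-0.83 to 0.07) and Hspa5 at -0.36 (-0.74 to 0.02), with adjusted p = 0.942 each; limma called 0 members against 0.00796% of features. With arrays centred on the median the median of all features was 0.18 in this comparison, and Trib3 was at -0.14, Hspa5 at -0.12 and Xbp1 at 0. Relative to other features the direction stayed lower for these genes. Centring moves all genes alike, so members nearer 0 than Xbp1 (-0.24 before it) then lay above 0. These were Atf4, Asns (-0.18 before it), Chac1 (-0.07), Herpud1 (-0.07) and Dnajb9 (-0.04). The shared direction of the 10 members therefore depended on the scaling. Without centring, Chac1, Herpud1 and Dnajb9 lay near the median of all features. At 24 h, the 6 alveolar type 2 markers stood at 0.21 to 0.28 in saline and -0.13 to 0.09 in oleic acid mice and the 4 alveolar type 1 markers at 0.18 to 0.21 and -0.1 to -0.03; their part in the member values was not tested.

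The arrays themselves separated for some members at single times. At 3 h Ddit3 was higher on both oleic acid arrays (18% of features were), and Atf4 and Hsp90b1 lower (17.7%). The second Atf4 probe pointed the other way at 3 h (0.15, 95% interval -0.5 to 0.79) and overlapped. At 4 h Chac1, Trib3 and Dnajb9 were higher without overlap (8.37%), while the second Dnajb9 probe pointed the other way (-0.32, 95% interval -0.97 to 0.33) and overlapped. At 18 h Ddit3, Trib3 and Xbp1 were lower (6.55%). At 24 h Asns, Atf4, Hspa5, Hsp90b1, Trib3 and Xbp1, 6 of 10, were lower (15.7%) and no member higher (5.95%). The median difference of all features at 24 h was itself -0.121, and -0.01 with quantile normalization. The second Atf4 probe again pointed the other way (0.34, 95% interval -0.25 to 0.93) and overlapped. At 1 and 1.5 h no member separated, where 3.2% and 11% of features were higher and 1.41% and 14% lower.

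**Figure D4:**
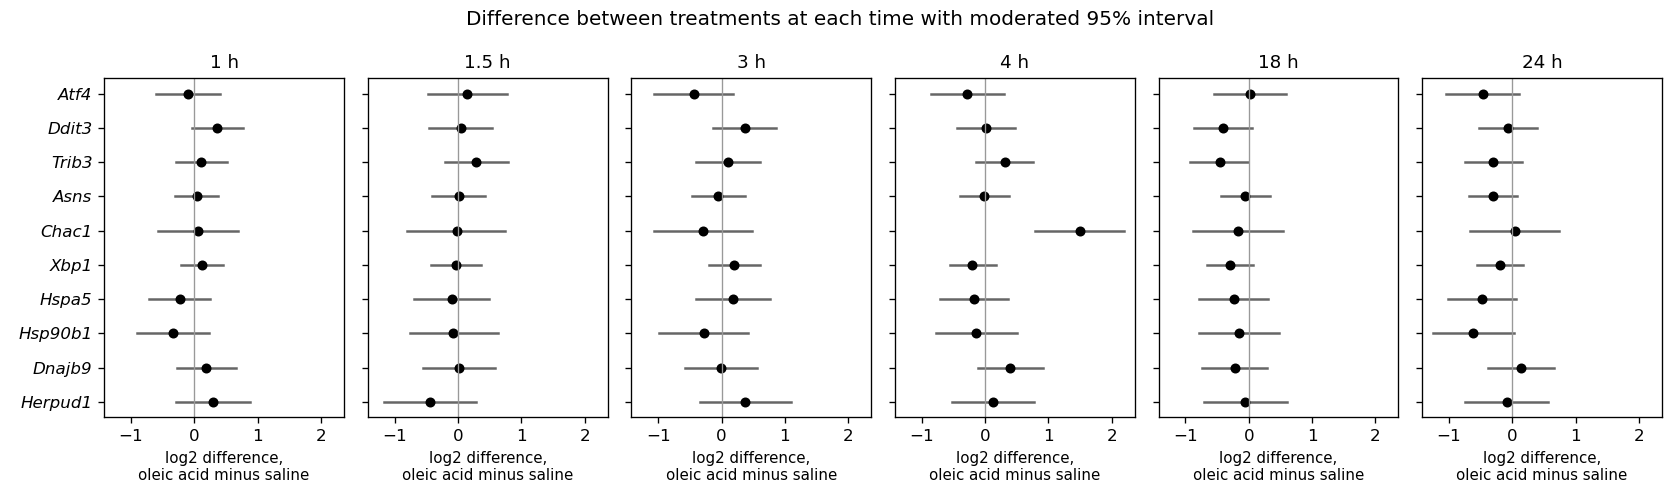
Oleic acid minus saline log2 difference of each member at the 6 times, with moderated 95% intervals from limma; a point above 0 is higher in oleic acid mice. The interval of Chac1 at 4 h (0.78 to 2.19) lies clear of 0, and no difference passes the adjusted threshold.

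Genes of the same pathway, taken from lists that hold none of the 10 members, were counted in the same comparisons. Of 28 measured ATF4 and CHOP targets, 1 rose and 4 fell from early to late times in oleic acid mice, where 2.1% of all features rose and 3.24% fell (median -0.18; all features -0.028). The falls included Slc7a1, a transporter of cationic amino acids (-0.45, adjusted p = 0.0196), Atf3, a stress transcription factor (-1.04, adjusted p = 0.0333), and Sesn2, a leucine sensor (-0.61, adjusted p = 0.0333), and Nupr1 rose (0.46, adjusted p = 0.00853; limma throughout). In saline mice, where 1.32% of features rose and 1.37% fell, 1 rose and 3 fell: Ddit4, which restrains mTORC1 (-1.91, adjusted p = 0.000855), Slc3a2 (-0.6, adjusted p = 0.00831) and Slc7a1 (-0.55, adjusted p = 0.0249), with Nupr1 again higher (0.55, adjusted p = 0.0123). On the one slide that holds saline 4 and 18 h, 1 was higher and 4 lower at 18 h (1.74% and 4.6% of features), led by Slc3a2 (-1.21, adjusted p = 0.00192) and Slc7a1 (-1.33, adjusted p = 0.00193). Slc7a1 read 2.11 to 2.31 in saline and 2.08 to 2.34 in oleic acid mice at 4 h, against 0.87 to 0.88 in saline mice at 18 h. The oleic acid count of 5 fell to 0 with all 31 arrays or with median centring and to 2 with 24 arrays.

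The aminoacyl tRNA synthetases, charge transfer RNAs and include ATF4 targets. Of 12 measured, 0 rose and 2 fell late in oleic acid mice (3.24% of features fell), Gars (-0.29, adjusted p = 0.0234) and Aars (-0.35, adjusted p = 0.0377, limma). On the slide of saline 4 and 18 h the same pair was lower at 18 h, as were 4.6% of features (Gars -0.69, adjusted p = 0.0091; Aars -0.76, adjusted p = 0.0201). Among 17 sensors and regulators of eIF2alpha, 1 differed among 6 times in each treatment, where 4.67% (oleic acid) and 4.64% (saline) of features did. That count is near the share of all features. The gene was Ppp1r15a, the phosphatase subunit that ends the PERK signal (adjusted p = 0.0263 in oleic acid, 0.0175 in saline, limma F test). It read 4.54 to 4.66 in saline and 4.54 to 4.59 in oleic acid mice at 3 h. From early to late times in oleic acid mice 1 gene of this list rose (2.1% of features did), Creb3l2, an ER-anchored factor related to ATF6 (0.39, adjusted p = 0.0144).

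Chaperones and folding enzymes of the ATF6 and XBP1 arms had some late rises. In saline mice 3 of 22 rose and 0 fell, where 1.32% of features rose: Sdf2l1 (0.74, adjusted p = 0.0088), Creld2 (0.57, adjusted p = 0.00938) and Manf (0.58, adjusted p = 0.021, limma). In oleic acid mice 2 rose, Sdf2l1 (0.77, adjusted p = 0.00145) and Creld2 (0.37, adjusted p = 0.0277), and Txndc11 fell (-0.38, adjusted p = 0.0141), where 2.1% of features rose and 3.24% fell. Sdf2l1 read 1.66 to 1.86 in saline and 1.35 to 1.76 in oleic acid mice at 18 h, against 0.19 to 0.57 in oleic acid mice at 4 h. Of 21 genes of ER-associated degradation, 1 rose in oleic acid mice (2.1% of features), Derl3 (0.78, adjusted p = 0.0307), and limma called 0 in saline mice. Derl3 is also a plasma cell marker, and the 7 plasma cell markers together stood in oleic acid mice at 0.05 to 0.23 at 1 h, 0.15 to 0.21 at 1.5 h, -0.11 to 0.18 at 3 h and -0.53 to 0.07 at 4 h, against 0.09 to 0.13 at 18 h and -0.12 to 0.21 at 24 h. The late values lay within the range of all early ones, and those of 18 h lay above those of 4 h. Derl3 is itself 1 of the 7 markers, and the part of plasma cells in its rise was not tested.

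**Figure D5:**
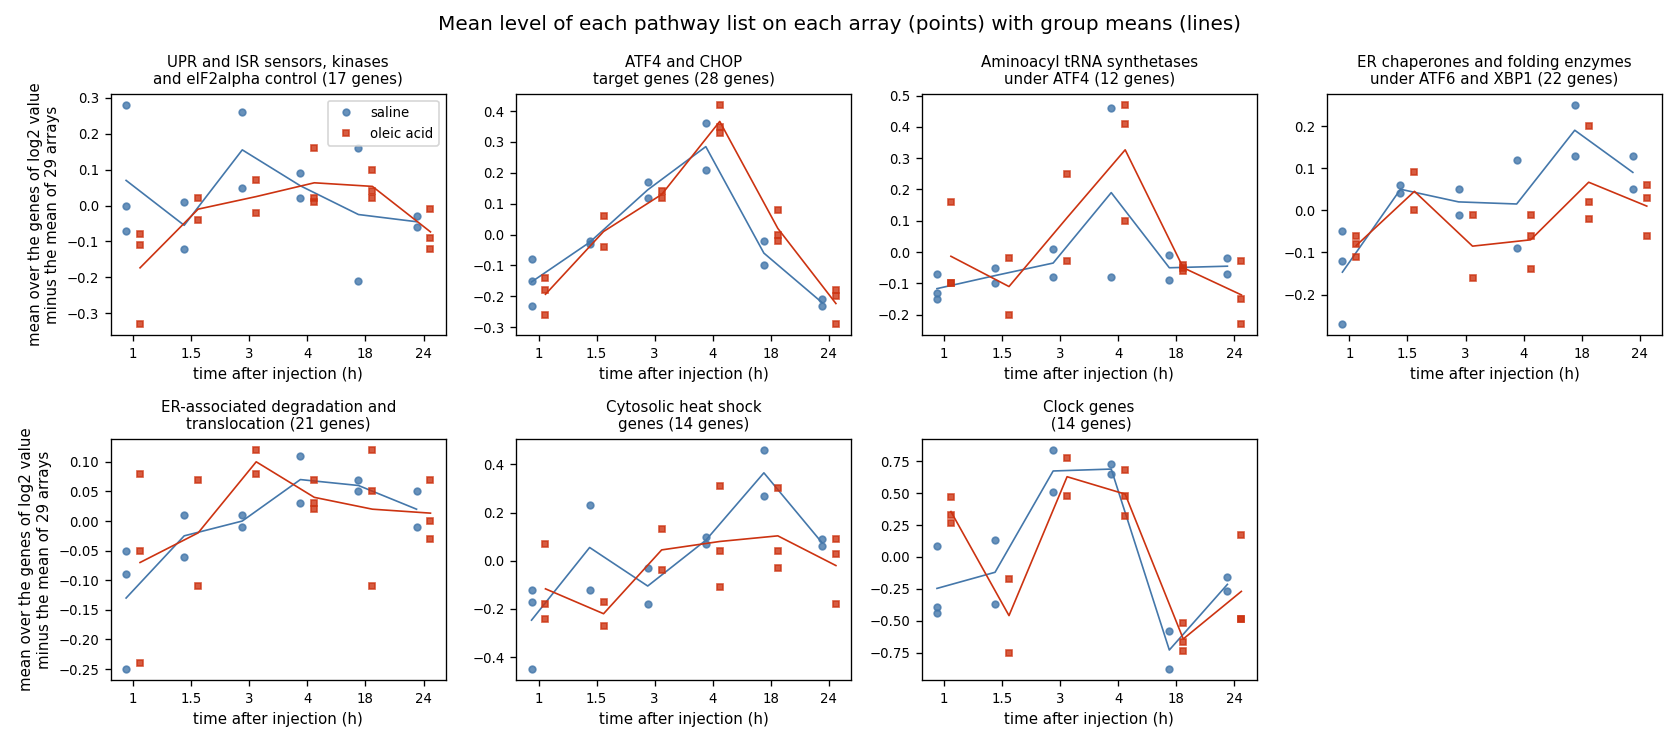
Mean level of each gene list per mouse, as the mean deviation of its genes from their average over the 29 arrays (log2), by hours after injection and treatment. ATF4 and CHOP targets peak at 4 h, at 0.21 to 0.36 in saline and 0.33 to 0.42 in oleic acid mice.

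Genes outside the pathway moved along the same axis of time. Of 14 clock genes, 4 fell late in oleic acid mice (3.24% of features) and 2 in saline mice (1.37%), led by Per1 (-2.01, adjusted p = 0.000203, and -2.38) and Nr1d1 (-1.93, adjusted p = 0.00184, and -1.96). The mean deviation of the clock genes was 0.32 to 0.84 at 3 and 4 h and -0.88 to -0.52 at 18 h. Of 14 cytosolic heat shock genes, 2 rose and 1 fell in oleic acid mice (5.34% of features called) and 3 rose and 1 fell in saline mice (2.69%), with Hsph1 at 1.07, Hsp90aa1 at 0.6 and Chordc1 at 0.58 in saline mice. Hspa4 was the gene that fell in both (-0.39 and -0.43), and the mean of its probes gave 0.18 and 0.62. The part of the clock and heat shock genes in the member values was not tested. Between oleic acid and saline at 4 h limma called 0 genes in each of the 7 lists, where the median was 0 for ATF4 and CHOP targets, 0.13 for the synthetases and -0.17 for the ER chaperones, and -0.084 over all features.

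The features most like each member over the 29 arrays included other pathway genes for some of them. Hspa5 was most like Pdia6, an ER disulphide isomerase (Pearson r = 0.929, Spearman rho = 0.922), then Hspd1 (0.915 and 0.922) and the collagen chaperone Serpinh1 (0.879 and 0.866). Hsp90b1 was most like Rexo2 (0.901 and 0.897), Ubfd1 (0.885 and 0.882) and Pdia6 (0.877 and 0.854). Asns was most like Poln (0.885 and 0.669), Ttc17 (0.884 and 0.819) and Cars, the cysteinyl tRNA synthetase (0.884 and 0.787). Chac1 was most like Riok2 (0.806 and 0.587), Mpp7 (0.796 and 0.572) and Ttc17 (0.772 and 0.674). Atf4 was most like Stx3 (0.954 and 0.957), Herpud1 like Rgcc (0.947 and 0.939), Dnajb9 like Ccp110 (0.905 and 0.879), Trib3 like Spin1 (0.882 and 0.887), Xbp1 like Klf3 (0.788 and 0.751) and Ddit3 like Cdk15 (0.784 and 0.829). These coefficients share group, slide and array signal and carry no test.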

How the data were processed

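Total lung RNA (200 ng) of 31 mice was labelled with Cy3 and scanned on Agilent arrays, 1 mouse each, and groups followed the labels. Image reading used Agilent's software (Agilent Feature Extraction, version 10.5.1.1), per the submitters' processing notes. Each spot has an intensity that the software corrected for background and quality flags of 0 or 1, per the file headers. In their deposited table the authors give log2 values that share a common distribution (sorted columns differ by at most 0.0179); its background treatment is not given in the sources used here.

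Here the processed signal of 59305 non-control spots was taken as log2 minus the 75th percentile of the array, outlier-marked spots were dropped and spots of a probe averaged. Probes were kept where all arrays of some group read them well above background, with the brightest per gene, giving 25115 features. Two-sided tests in limma 3.58.1 (R 4.3.3, statmod 1.5.0, the data.table package, version 1.17.8) fitted 12 group means to 29 arrays, with Benjamini-Hochberg adjustment and a threshold of 0.05. Replicates are separate mice, so p-values measure the spread between these mice, and their number limits the precision. Scripts were tested on simulated data.

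Members and lists were chosen with earlier results of these data known. Named genes are the 10 members, up to 4 genes per list with the smallest p in the comparison described, and the 3 features most like each member. F tests over 1 to 4 h, the fit on 24 arrays (without the 5 with over 70% of spots above background) and the 75th percentile as covariate were added after seeing the data. Other alternatives were all 31 arrays, other background correction (normexp, offset 50), scaling, filters and probe summaries, the deposited table, slide terms, the replicate number as a block, an intensity trend and leaving out each array. Deviations of same-numbered oleic acid and saline arrays correlated over 0.1 in 7 of 12 pairs (-0.767 to 0.615). With so few arrays per group these correlations cannot show whether the numbers pair the mice.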

Additional observations from a re-analysis of the deposited data

Results flagged for a closer look

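For 2 of 10 members the oleic acid arrays lay wholly on one side of the saline arrays at one time and wholly on the other side at another. Ddit3 was higher in oleic acid mice at 3 h, by a log2 difference of 0.37, and lower at 18 h (-0.41). Trib3 was higher at 4 h (0.31) and lower at 18 h (-0.46) and at 24 h (-0.3). The difference between those times was not tested. Groups are of 2 or 3 mice, and 3953 of 25115 features (15.7%) separated in opposite directions in the same way, so the members' count is near that background.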

How the results depend on the processing

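Counts of members called (of 10) changed with the settings as follows; the cause was not tested. For differences among 6 times, oleic acid mice had 3 members, which became 1 with all 31 arrays, 0 with median centring and 5 with an intensity trend, with probes above background on every array, or with slide as a random block. Saline mice had 1, which became 0 with 24 arrays, the 75th percentile as covariate, 31 arrays, median centring, no filter or quantile normalization, and 2 with the deposited table. Among 1 to 4 h oleic acid mice had 1, which became 2 with the covariate, the trend, the mean of probes, probes above background on every array or slide as a random block, and 0 with median centring or slide as a fixed term. Saline mice had 1, which became 0 with 24 arrays, the covariate, 31 arrays, median centring, no filter, quantile normalization or slide as a fixed term, and 2 with slide as a random block. For late against early times, oleic acid mice had 2, which became 0 with 31 arrays or median centring and 3 with the mean of probes or slide as a random block (Atf4 gained) or quantile normalization (Hsp90b1 gained). Saline mice had 0, which became 1 with 24 arrays, the deposited table, the trend, the mean of probes, normexp, probes above background on every array or slide as a random block, and 2 with the covariate or quantile normalization. For saline 18 h against 4 h the count of 1 became 0 with 24 arrays, the covariate, 31 arrays or median centring, and 2 with the trend or probes above background on every array. With quantile normalization or the deposited table the 1 member called was Hspa5 (1.04 and 1.17), not Atf4. With the replicate block the count became 2, and no other count of members changed by over 1.5 times with it.

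Leaving out 1 array gave 0 to 2 members for saline late against early times (2 without saline 4 h replicate 2, 1 without oleic acid 1 h replicate 2), 0 to 2 for saline 18 h against 4 h (0 without saline 18 h replicate 2, 2 without oleic acid 1 h replicate 2 or 3), 0 to 2 for saline among 6 times and among 1 to 4 h (0 for both without saline 1.5 h replicate 1 or saline 3 h replicate 2, 2 for both without saline 4 h replicate 2), 1 to 2 for oleic acid among 1 to 4 h (2 without either saline 4 h array), and 0 to 1 for oleic acid against saline at 4 h (1 without saline 4 h replicate 1). Saline among 6 times was also 0 without saline 18 h replicate 2, and among 1 to 4 h without saline 1.5 h replicate 2. The late Xbp1 difference between treatments went to 0 with median centring, and the late Hspa4 differences to 0.18 (oleic acid) and 0.62 (saline) with the mean of its probes. For oleic acid among 6 times the range was 2 to 4 (2 without oleic acid 3 h replicate 3 or any oleic acid 4 h array). The other counts of members stayed within 1.5 times of those reported. Groups of 2 or 3 arrays and median shifts of up to -0.52 under median centring (saline 18 h against 4 h) limit these comparisons.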
